A study of Rattus norvegicus with 6 samples.

Results

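The mRNAs of 10 immediate-early and mitogen-activated protein kinase (MAPK) feedback genes, *Dusp1*, *Dusp6*, *Egr1*, *Fos*, *Jun*, *Junb*, *Ier2*, *Ier3*, *Myc* and *Atf3*, were examined in rat liver. The genes were taken by symbol from a table of 33022 loci, in which 9 of the 10 were found, each on 1 locus. *Ier2* was not found under that symbol and is not analysed here. The list was selected on earlier results of these data, that is, on the FPKM values of the same 6 libraries, so the differences between diets given for its members are descriptions and not tests.

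The livers came from obesity-prone Sprague Dawley rats fed a control diet (CD) or a Western diet (WD), rich in milk fat and sucrose, for 2 weeks. Total RNA was taken from the liver homogenate. The light fraction of a sucrose gradient held mRNAs bound to 3 or fewer ribosomes, and the heavy fraction held those bound to 4 or more. Per the study's text, these rats had been fasted overnight and given their own diet again for a short time in the morning before the liver was removed under isoflurane. Every library, 6 in all, was made from the combined RNA of 3 rats of 1 diet. Hence no value has a replicate and no difference between the diets could be tested.

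Immediate-early genes are transcribed within minutes of a growth factor, hormone or stress signal, without new protein synthesis, and most of their mRNAs are short-lived. The signal often passes through the kinases RAF, MEK and ERK to transcription factors such as the ternary complex factors, SRF and CREB, which switch on *Fos*, *Egr1*, *Jun* and their relatives. MAPK phosphatases made in the same response remove phosphate from ERK, JNK or p38 and so limit the signal, and in the liver this program is known from feeding, stress and the first hours of regeneration.

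The values are FPKM, fragments per kilobase of transcript after a scaling of the libraries by Cuffnorm whose method the study's text does not give. Fragment numbers could be inferred for 8 of the 9 mRNAs, since the FPKM values of a locus were whole-number multiples of a common step. A ratio is WD over CD, and its 95% interval comes from these fragment numbers. It describes counting error between these pooled libraries and says nothing of the spread among rats, and it treats each fragment as a separate molecule, which amplified reads lacking molecular identifiers need not be. Depth was inferred from the FPKM that 1 such fragment stands for. By it the WD light fraction was the deepest library, at 2.34 times the CD heavy fraction, and the others lay between 1 and 1.57 times. A set of 10201 loci, those carrying a symbol whose mean reached 1 FPKM, was compared, and over the 7060 of these with inferred numbers the median was between 8 and 21 fragments per library. In whole liver RNA, fewer cells of a type and less RNA per cell cannot be told apart. The hepatocyte markers *Alb*, *Apoa1*, *Ttr*, *Tf*, *Serpina1*, *Fgb*, *Cyp2e1* and *Cps1* were all found, with a summed level of 87737 FPKM in CD and 80336 FPKM in WD total RNA. *Alb* alone gave 47108 and 43677 FPKM of these sums. *Fgb*, *Cyp2e1* and *Cps1* were higher in WD total RNA and the others lower.

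The MAPK phosphatases *Dusp1* and *Dusp6* were the members whose FPKM was lower in the WD library than in the CD library in all 3 RNAs with more than a few fragments behind each value. Dusp1 is an inducible nuclear phosphatase that acts on p38, JNK and ERK, and Dusp6 is a cytoplasmic phosphatase with a preference for ERK that is itself induced by ERK signaling. Their promoters are shown because these mRNAs were lower in WD together. The windows are the 250 bases before the start of each gene on the plus strand of the RefSeq assembly GRCr8, at chr10:17184603-17184852 for *Dusp1* and chr7:35979354-35979603 for *Dusp6*. Capitals mark matches on either strand to the cyclic AMP response element TGACGTCA, its core TGACG, the E-box CACGTG and the GC box GGGCGG.
Dusp1: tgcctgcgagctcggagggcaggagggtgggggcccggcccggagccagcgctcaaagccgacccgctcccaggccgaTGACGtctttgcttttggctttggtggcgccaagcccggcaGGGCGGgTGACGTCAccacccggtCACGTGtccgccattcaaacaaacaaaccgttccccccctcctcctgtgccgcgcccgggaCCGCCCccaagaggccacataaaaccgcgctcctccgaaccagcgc
Dusp6: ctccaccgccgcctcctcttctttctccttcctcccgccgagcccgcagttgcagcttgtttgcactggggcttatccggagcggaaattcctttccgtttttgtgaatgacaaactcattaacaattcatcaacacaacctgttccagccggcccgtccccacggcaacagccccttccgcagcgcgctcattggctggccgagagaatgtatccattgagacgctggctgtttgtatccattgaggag
The *Dusp1* window held a full cyclic AMP response element beginning 124 bases before the start, which contains that core on each strand, a further core at 172 bases, an E-box at 107 bases and GC boxes at 131 and 46 bases. The *Dusp6* window held none of these letters. Of 33469 promoter windows of the same length, 1.59% held the full element, 18.2% the core TGACG, 5.59% the E-box and 30.5% the GC box. Neither window held the AP-1 site TGACTCA, the ETS site CCGGAA, the TATA box TATAAA or the core of the serum response element, which were present in 4.05%, 12.6%, 12.9% and 1.5% of windows. The GC content was 68.8% for *Dusp1* and 55.6% for *Dusp6*, against a median of 51.2%. A match of letters is a description of the window and not a binding site.

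*Dusp1* (Rnor_6.0, positions as deposited, chromosome 10, 16970625 to 16973418) was measured at 66.5 FPKM in CD and 33.7 FPKM in WD total RNA, at 74.5 and 34.9 FPKM in the light fraction, and at 45.1 and 24.0 FPKM in the heavy fraction. As deposited, all 3 CD libraries were above all 3 WD libraries, but the 3 RNAs of a diet share 1 pool of rats and are not replicates. In total RNA the level in WD was 0.507 times that in CD (95% interval 0.370 to 0.688, 64 against 132 fragments). The ratio was 0.469 in the light fraction (0.353 to 0.623), where the deeper WD library gave 103 fragments for the lower level and the CD library 101. The ratio was 0.531 in the heavy fraction (0.331 to 0.836, 31 against 57 fragments). The mRNA was thus lower by a similar factor in each RNA, with overlapping intervals.

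*Dusp6* (chromosome 7, 41475162 to 41479392) was at 49.0 FPKM in CD and 21.5 FPKM in WD total RNA, and at 57.1 and 26.3 FPKM in the light fraction. In the heavy fraction it was at 100.6 FPKM in CD, the highest value of any member in any library, and at 33.6 FPKM in WD. As deposited, all 3 CD libraries were above all 3 WD libraries here too, again from 1 pool of rats per diet. Such an order across RNAs can depend on the scaling of the libraries and was not examined under rescaling. The ratios were 0.439 in total RNA (0.319 to 0.597, 60 against 143 fragments), 0.460 in the light fraction (0.352 to 0.602, 114 fragments in each library) and 0.334 in the heavy fraction (0.248 to 0.446, 64 against 187 fragments). The bounds that Cufflinks gives are wider than these intervals and overlapped between the diets for both phosphatases, for example 11.6 to 86.4 FPKM in CD and 5.37 to 37.6 FPKM in WD total RNA for *Dusp6*.

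**Figure D1:**
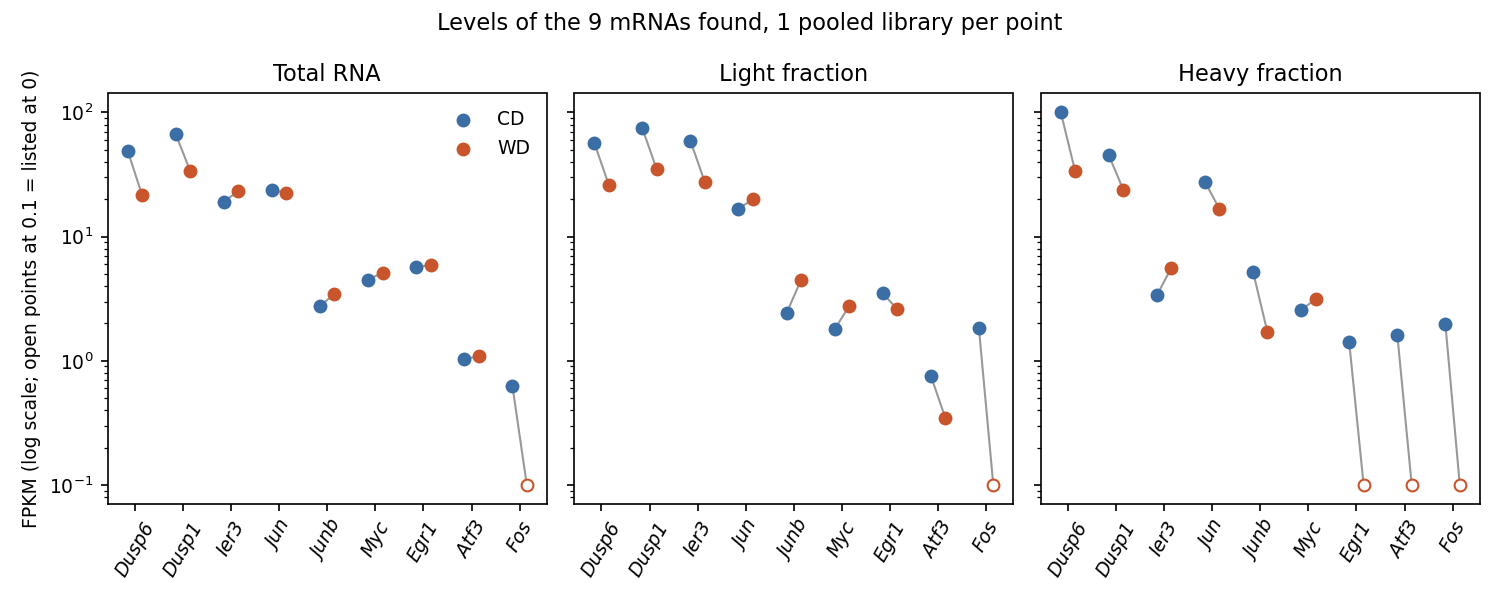
Level of each of the 9 mRNAs found, in FPKM on a log axis, in total RNA, the light fraction and the heavy fraction. Each point is 1 library pooled from 3 rats, blue for CD and orange for WD, and open points stand for values listed at 0. *Dusp1* and *Dusp6* are lower in WD in each panel, and *Fos* is listed at 0 in the 3 WD libraries.

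The AP-1 genes encode the leucine zipper proteins that pair to form the AP-1 transcription factor. *Jun* (chromosome 5, 114011188 to 114014277) was at 23.6 FPKM in CD and 22.5 FPKM in WD total RNA, at 16.8 and 20.0 FPKM in the light fraction, and at 27.6 and 16.7 FPKM in the heavy fraction. The diets were close in total RNA, and the heavy fraction was the RNA in which they stood farthest apart. The ratio was 0.952 in total RNA (0.680 to 1.33, 71 against 78 fragments), 1.19 in the light fraction (0.808 to 1.77, 98 against 38) and 0.606 in the heavy fraction (0.388 to 0.934, 36 against 58). The light ratio was above 1 as deposited and below 1 where libraries were rescaled to the same sum over loci with a symbol. The heavy log2 change, -0.72 as deposited, was -0.34 and short of the 0.75-fold limit where they were rescaled over all loci.

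*Junb* (chromosome 19, 26092973 to 26094756), which encodes a Jun relative that can restrain Jun, was measured from 2 to 12 fragments per library. It was at 2.76 FPKM in CD and 3.47 FPKM in WD total RNA, at 2.43 and 4.46 FPKM in the light fraction, and at 5.21 and 1.70 FPKM in the heavy fraction. The light value was higher and the heavy value lower in WD, as for *Jun*, but the intervals of the ratios were wide, 0.496 to 10.2 in the light fraction (12 against 3 fragments) and 0.0321 to 1.82 in the heavy fraction (2 against 6 fragments).

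*Fos* (chromosome 6, 109300432 to 109303299), the partner of Jun in AP-1, was at 0.630 FPKM in CD total RNA, 1.84 FPKM in the CD light fraction and 1.98 FPKM in the CD heavy fraction, on 1, 2 and 2 fragments. It was listed at 0 in the 3 WD libraries, and a count of 0 allows up to 1.98 FPKM in total RNA, 1.27 FPKM in the light and 2.90 FPKM in the heavy fraction. No difference in *Fos* was therefore detectable at this depth. *Atf3* (chromosome 13, 109817727 to 109849632), which encodes a stress-induced relative of these factors, rested on 2 or fewer fragments in each library, between 0 and 1.63 FPKM, and was likewise too low to compare.

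*Egr1* (chromosome 18, 27657627 to 27661429) encodes a zinc finger transcription factor induced through SRF. It was at 5.67 FPKM in CD and 5.93 FPKM in WD total RNA, with 19 fragments in each library and a ratio of 1.05 (0.524 to 2.09). In the light fraction it was at 3.49 and 2.61 FPKM, a ratio of 0.747 (0.287 to 2.08) before the 0.1 FPKM used below was added. In the heavy fraction 3 fragments were found in CD, 1.41 FPKM, and none in WD, which allows up to 1.37 FPKM, so the heavy fraction gave no usable ratio.

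*Myc* (chromosome 7, 102586312 to 102591237), which encodes the growth-promoting transcription factor MYC, was at 4.50 FPKM in CD and 5.13 FPKM in WD total RNA. It was at 1.79 and 2.75 FPKM in the light fraction and at 2.57 and 3.14 FPKM in the heavy fraction. The WD library had the higher value in each RNA, but the interval of each ratio included 1, from 0.461 to 2.85 in total RNA, 0.395 to 8.67 in the light fraction and 0.263 to 6.15 in the heavy fraction, on between 3 and 12 fragments.

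*Ier3* (chromosome 20, 3438797 to 3440769), an early response gene involved in cell survival and ERK signaling, had a pattern of its own among the members. It was at 19.2 FPKM in CD and 23.2 FPKM in WD total RNA, at 59.1 and 27.4 FPKM in the light fraction, and at 3.37 and 5.61 FPKM in the heavy fraction. The WD value was below the CD value in the light fraction and above it in the other RNAs, with ratios of 1.21 in total RNA, 0.464 in the light and 1.66 in the heavy fraction. No fragment numbers could be inferred for *Ier3*, and the Cufflinks bounds were wide, 0.713 to 117.6 FPKM in the CD light fraction and 2.80 to 52.1 FPKM in the WD light fraction.

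**Figure D2:**
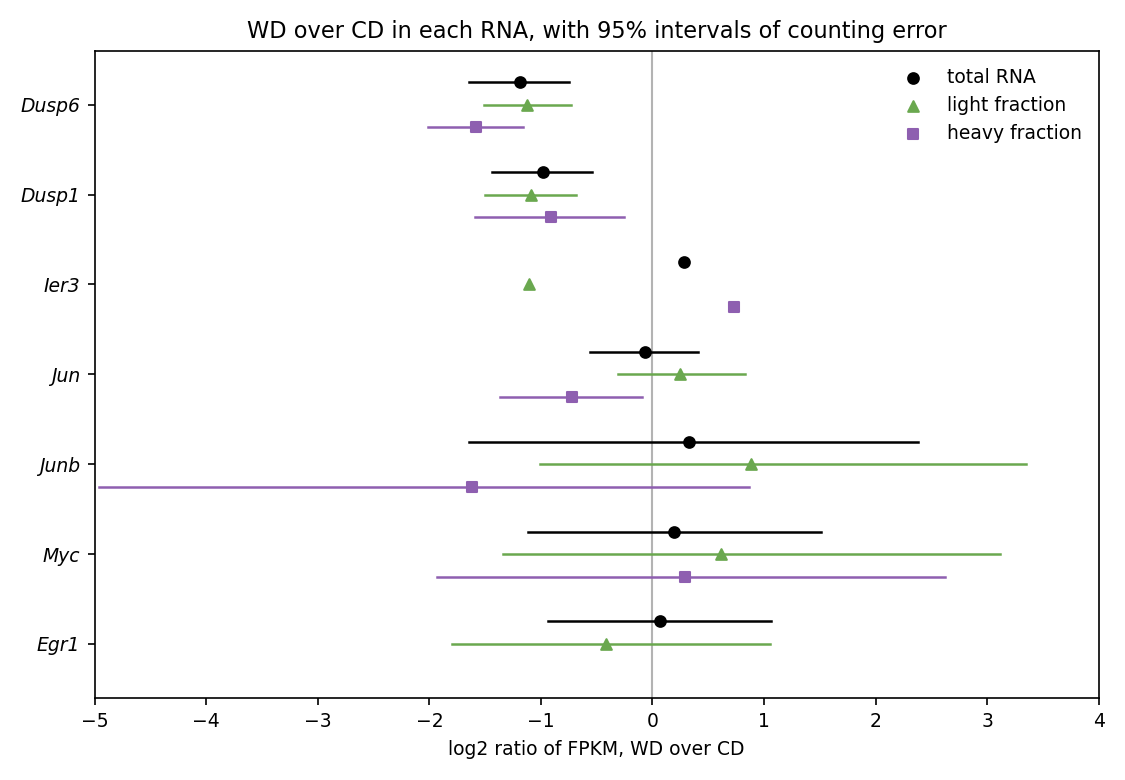
Log2 ratio of FPKM, WD over CD, for the 7 mRNAs compared, with 95% intervals of counting error as lines. Circles are total RNA, triangles the light and squares the heavy fraction, each from 1 library per diet, and *Ier3* has no interval and *Egr1* no heavy point. *Dusp1* and *Dusp6* lie to the left of 0 in all 3 RNAs, at 0.334 to 0.531 times the CD level, and *Jun* does so with its interval in the heavy fraction.

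In CD total RNA the order of the levels was *Dusp1*, *Dusp6*, *Jun*, *Ier3*, *Egr1*, *Myc*, *Junb*, *Atf3* and *Fos*, from 66.5 to 0.630 FPKM, and the Cufflinks bounds of each overlapped those of its neighbor. In WD total RNA *Dusp1* was again first at 33.7 FPKM, followed by *Ier3*, *Jun* and *Dusp6*. The phosphatases led the order in CD, whereas in WD *Dusp1*, *Ier3*, *Jun* and *Dusp6* lay between 21.5 and 33.7 FPKM.

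Of the 9 mRNAs, 7 had a mean of at least 1 FPKM and were set beside all loci compared, with 0.1 FPKM added before a ratio was taken. The thresholds were at least 1.5-fold and at most 0.75-fold. In total RNA 2 of the 7 were at most 0.75-fold and 0 were at least 1.5-fold, where 22.7% and 17.7% of all loci were. In the light fraction 3 were lower and 2 higher by these thresholds, against 26.8% and 25.9% of all loci. In the heavy fraction 5 were lower, namely *Dusp1*, *Dusp6*, *Jun*, *Junb* and, with no fragment in WD, *Egr1*, and 1 was higher, *Ier3*, against 25.8% and 21.7%. The median log2 change of the 7 was 0.06 in total RNA, -0.41 in the light and -0.91 in the heavy fraction, and that of all loci was 0.02, 0.02 and -0.02. The direction of the light median depended on the scaling, since it was -0.75 with libraries rescaled to the same sum over loci with a symbol and 0.26 with rescaling over all loci, and that of the total RNA median was -0.11 with the latter. *Dusp1* and *Dusp6* were at most 0.75-fold in all 3 RNAs, as were 2.52% of all loci. With rescaling over all loci the light log2 changes were -0.41 for *Dusp1*, which was then short of the 0.75-fold limit, and -0.43 for *Dusp6*, while the median of all loci was at 0.69. This joint count was defined after the members' values were seen, and nothing is read from it.

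**Figure D3:**
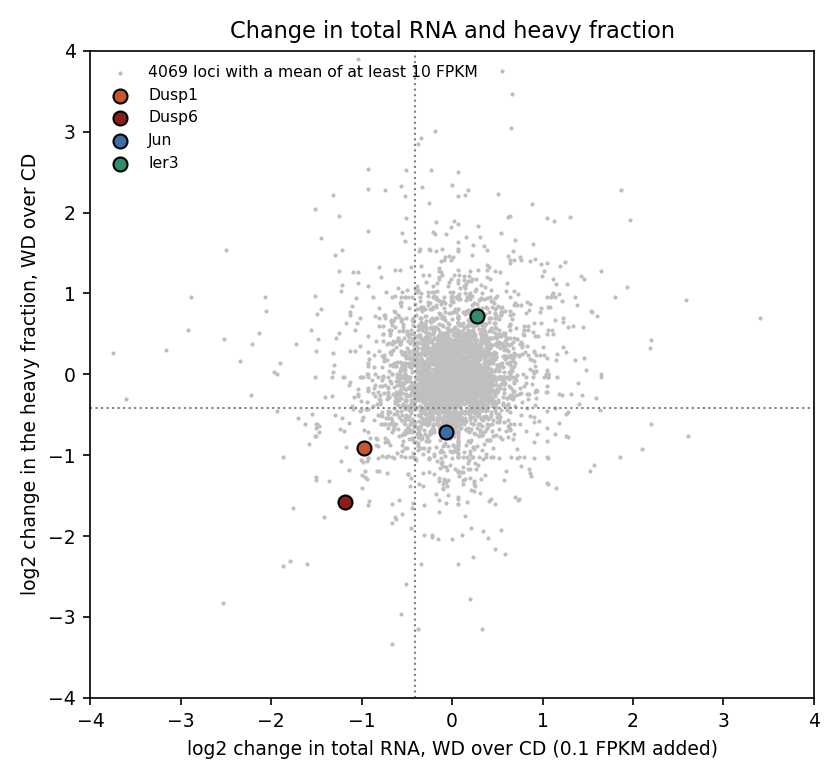
Log2 change (WD over CD, 0.1 FPKM added) in total RNA on the horizontal axis and in the heavy fraction on the vertical axis for the 4069 loci whose mean reached 10 FPKM, of which 188 lie outside the axes. Each point is 1 locus, dotted lines mark 0.75-fold, and 4 members are colored. *Dusp1* and *Dusp6* lie in the lower left, while *Jun* is lower only along the vertical axis.

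The ribosome density of an mRNA was taken as the ratio of its FPKM in the heavy to that in the light fraction. FPKM values are scaled by library, so a ratio of 1 does not stand for an equal split of an mRNA between the fractions. The side of 1 on which a ratio lies can depend on the scaling. *Dusp6* had a ratio of 1.76 in CD (1.39 to 2.24) and 1.28 in WD (0.927 to 1.75), and *Dusp1* 0.606 (0.430 to 0.847) and 0.686 (0.444 to 1.03). As deposited, the CD ratio was thus above 1 for *Dusp6* and below 1 for *Dusp1*. In WD the values lay on the same sides of 1, but both intervals included 1. The density in WD over that in CD was 0.726 for *Dusp6* (0.485 to 1.09) and 1.13 for *Dusp1* (0.651 to 1.95). Both of these intervals included 1 as well.

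*Jun* had a heavy to light ratio of 1.64 in CD (1.07 to 2.54) and 0.838 in WD (0.555 to 1.24). As deposited, the CD value was thus above 1 and the WD value below it, though the WD interval included 1. The density in WD over that in CD was 0.511 (0.281 to 0.928). *Junb* went from 2.15 in CD to 0.380 in WD on few fragments, with an interval of the density ratio of 0.0133 to 1.84. *Myc* was at 1.43 and 1.14, and *Egr1* at 0.403 in CD with no heavy fragment in WD. *Ier3* had the lowest ratio of the members in CD, 0.0570, against 0.205 in WD, a density 3.59 times higher in WD. Where density was instead the heavy fraction relative to total RNA, the log2 density change of *Ier3* was 0.44 instead of 1.82 and no longer past the threshold.

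Of the 7 members, 3 were at least 1.5-fold and 3 at most 0.75-fold in the heavy over the light fraction of CD, against 32.9% and 36.6% of loci. In WD these counts were 0 and 4, against 31.4% and 38.5%. By the same thresholds 4 of the 7 members had a lower and 1 a higher ribosome density in WD, against 36.1% and 27.7% of all loci. The lower ones were *Dusp6*, *Jun*, *Junb* and, with no heavy fragment in WD, *Egr1*, and only the interval of *Jun* excluded 1. The lower count was 3 with rescaling over loci with a symbol, 5 with rescaling over all loci and 3 with heavy over total RNA. The median log2 of the heavy to light ratio over the 7 was 0.49 in CD and -0.54 in WD, and over all loci 0.01 and 0. The CD median was the value of *Myc*, on 4 heavy and 3 light fragments, and the WD median that of *Dusp1*. The difference between these medians is thus not the change of any 1 gene. The heavy to light ratios within a diet were not computed under rescaling.

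Relative to total RNA, which was taken from the homogenate whereas gradients were loaded with a cleared supernatant, *Dusp6* was at 2.05 times its level in the heavy fraction of CD (1.64 to 2.57) and 1.56 times in WD (1.08 to 2.26). *Dusp1* was at 0.678 times in CD (0.488 to 0.932) and 0.711 times in WD (0.447 to 1.11). *Ier3* in the light fraction was at 3.09 times its total RNA level in CD and 1.18 times in WD.

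**Figure D4:**
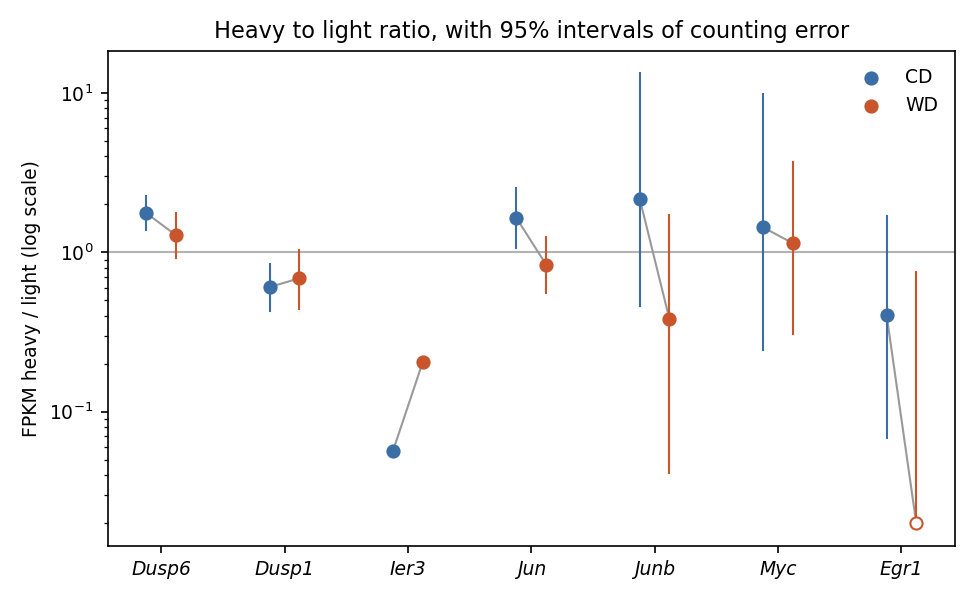
Ratio of FPKM in the heavy to that in the light fraction on a log axis for the 7 mRNAs compared, with CD in blue and WD in orange and 95% intervals of counting error as lines. Each point rests on 2 libraries, and *Ier3* has no interval. As deposited, *Dusp6* stays above 1 in both diets and *Jun* lies above 1 in CD and below 1 in WD. The open point of *Egr1* in WD stands for 0.

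The genes of the pathway above these targets were followed with lists of their own. The ERK cascade, from receptors such as *Egfr* through the RAS and RAF proteins to ERK, had 21 of 21 genes compared, of which 3 were at least 1.5-fold and 2 at most 0.75-fold in total RNA, with a median log2 change of 0.06. For all loci these shares were 17.7% and 22.7%, and the total RNA counts of the lists that follow are to be read against the same shares. *Egfr* was at 86.2 FPKM in CD and 107.2 FPKM in WD total RNA, at 44.6 and 48.8 FPKM in the light and at 93.4 and 122.7 FPKM in the heavy fraction. *Mapk3* (ERK1) was at 14.9 and 17.4 FPKM, 20.2 and 9.31 FPKM, and 10.4 and 8.49 FPKM in the same order, so its light value was lower in WD (interval of the ratio 0.253 to 0.835). Both were picked as well-known members after the values were seen. By the naming rule, the lowest was *Hras*, at 2.41 FPKM in CD and listed at 0 in WD total RNA. In the light fraction *Hras* was instead higher in WD, at 3.76 FPKM in CD and 18.5 FPKM in WD. It was listed at 0 in the heavy fraction of both diets and had no fragment numbers. *Braf*, a RAF kinase, had the highest density change. It was at 1.27 FPKM in CD and 4.96 FPKM in WD in the heavy fraction, on 2 and 8 fragments. In the light fraction it was at 4.14 and 5.16 FPKM, on 7 fragments and, in the deeper WD library, 19.

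In the JNK and p38 cascades, which act on Jun and are targets of Dusp1, 1 of 7 genes compared was higher and 3 were lower in total RNA (17.7% and 22.7% of all loci), with a median of -0.40. *Map2k7*, a kinase that activates JNK, was at 4.13 and 6.91 FPKM, and *Mapk8* (JNK1) at 10.5 and 5.91 FPKM. *Map3k5*, a stress-activated kinase, had the highest density change, with 1.63 and 0.751 FPKM in the light and 2.10 and 3.08 FPKM in the heavy fraction.

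Of 10 upstream transcription factors and coactivators compared, 3 were higher and 1 lower in total RNA (median 0.27), and 2 and 2 with rescaling over all loci. *Elk1*, a ternary complex factor, was at 1.44 and 4.15 FPKM on 4 and 11 fragments. *Creb1*, the gene of CREB, was at 3.19 and 1.11 FPKM in total RNA and at 0 and 3.26 FPKM in the heavy fraction. *Elk3* had 2 heavy fragments in CD and 0 in WD.

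Among the inhibitors of the receptors and the cascade, 1 of 9 was higher and 2 lower in total RNA (median -0.27, against 17.7% and 22.7% of all loci). With rescaling over all loci these total RNA counts were 1 and 5. In the light fraction 3 were higher and 2 lower (median 0.19), against 25.9% and 26.8% of all loci. In the heavy fraction 1 was higher and 5 were lower, against 21.7% and 25.8%. With rescaling over all loci these counts were 6 and 0 in the light and 2 and 2 in the heavy fraction. *Spry1*, a Sprouty inhibitor induced by growth factors, was at 5.24 and 1.83 FPKM in total RNA but at 5.11 and 7.35 FPKM in the light fraction. *Spry2* was at 1.63 and 2.84 FPKM on 3 and 5 fragments. *Spred2*, a related inhibitor, had the lowest density change, with 7.45 and 11.4 FPKM in the light and 5.34 and 2.61 FPKM in the heavy fraction.

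Of 9 other MAPK phosphatases only 4 reached a mean of 1 FPKM, with 0 higher and 2 lower in total RNA (median -0.24). *Dusp16*, which acts on JNK and p38, was at 9.23 and 11.7 FPKM in total RNA, 9.97 and 7.29 FPKM in the light and 11.3 and 17.2 FPKM in the heavy fraction. *Dusp5*, a nuclear ERK phosphatase, had 6 (CD) and 0 (WD) fragments in total RNA. In the light fraction, where the WD library was deeper, it had 2 and 10, at 1.15 and 2.65 FPKM. *Dusp8* was lower in all 3 RNAs on 4 or fewer fragments each. The pattern of *Dusp1* and *Dusp6*, lower in every RNA on many fragments, was not seen in *Dusp16*, the most abundant of the others.

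Other genes of the AP-1 family had 4 of 7 higher and 1 lower in total RNA (median 0.77, against 17.7% and 22.7% of all loci), mostly on few fragments. In the light fraction 1 was higher and 3 were lower (median -0.12), against 25.9% and 26.8% of all loci. With rescaling over all loci these light counts were 3 and 1 (median 0.54). *Fosl2* had 0 (CD) and 3 (WD) fragments in total RNA, and 6 and 4 in the light fraction. *Mafg* was at 11.3 and 7.19 FPKM, and *Mafk* had 3 heavy fragments in CD and 0 in WD. The other EGR, NR4A and KLF genes had 2 of 7 higher and 0 lower in total RNA (median 0.25), or 0 and 1 with rescaling over all loci. In the light fraction 1 of them was higher and 4 were lower, against 25.9% and 26.8% of all loci, or 3 and 2 with that rescaling. *Klf15*, a fasting-induced regulator of amino acid metabolism, was at 14.5 and 23.4 FPKM in total RNA and at 29.6 and 53.6 FPKM in the heavy fraction, and *Klf9* was at 11.0 and 8.72 FPKM in total RNA. *Klf2* rested on 6 or fewer fragments, and *Nr4a1* was at 1.76 and 2.80 FPKM in total RNA.

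MYC acts with MAX and is opposed by the MXD proteins, MXI1 and MNT. Of 6 such partners and relatives compared, 3 were higher and 1 lower in total RNA (median 0.36, against 17.7% and 22.7% of all loci), and 2 and 2 with rescaling over all loci. *Mxi1* was at 2.53 and 7.04 FPKM on 6 and 16 fragments, and *Mycl* at 2.55 and 1.67 FPKM. *Mlx*, which encodes a partner of carbohydrate-responsive factors, was at 10.3 and 21.7 FPKM in the heavy fraction, and *Mnt* had no heavy fragment in either diet.

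The other immediate-early genes formed the largest of these lists, with 24 of 28 compared. In total RNA 1 was at least 1.5-fold and 10 were at most 0.75-fold, in the light fraction 2 and 13, and in the heavy fraction 3 and 10. The shares of all loci were 17.7% and 22.7%, 25.9% and 26.8%, and 21.7% and 25.8%. With rescaling over all loci the counts became 7 and 5 in the light and 8 and 8 in the heavy fraction, and 1 and 13 in total RNA. The median log2 change was -0.30, -0.46 and -0.27. Relative to the median of all loci it stayed negative under each scaling, between -0.52 and -0.23, but on the rescaling over all loci the light and heavy medians themselves were 0.23 and 0.10. Of the 24, 6 genes, *Gadd45g*, *Cyr61*, *Socs3*, *Trib1*, *Id1* and *Id3*, were at most 0.75-fold in all 3 RNAs, against 2.52% of all loci. *Phlda1* was at least 1.5-fold in all 3, against 2.23%. Like that of the members, these joint counts were defined after values were seen, and nothing is read from them. They were not repeated under rescaling. With rescaling over all loci only 5 genes were lower in the light fraction, so the 6 could not all remain. *Gadd45g*, *Trib1*, *Id1* and *Id3* were named after their values were seen.

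*Gadd45g*, which encodes an activator of the p38 and JNK pathways, had the clearest difference of these. It was at 54.1 FPKM in CD and 9.26 FPKM in WD total RNA, at 30.2 and 13.2 FPKM in the light fraction, and at 75.7 and 10.6 FPKM in the heavy fraction. The WD value was below the CD value in each RNA, on 9 against 55 fragments in total RNA (interval of the ratio 0.0743 to 0.349), 20 against 21 in the light fraction (0.225 to 0.849) and 7 against 49 in the heavy fraction (0.0533 to 0.310). *Trib1*, the gene of a pseudokinase that directs proteins to degradation, was at 28.6 and 13.9 FPKM, 36.1 and 5.98 FPKM, and 24.1 and 12.9 FPKM in the same order of RNAs. *Id3*, an inhibitor of helix-loop-helix factors, was at 59.8 and 43.2 FPKM, 76.3 and 42.4 FPKM, and 121.2 and 46.7 FPKM. *Socs3*, a feedback inhibitor of cytokine signaling, and *Cyr61*, a secreted matrix protein induced by growth factors, rested on few fragments. *Cyr61* had 11 and 1 fragments in total RNA and 6 and 0 in the heavy fraction, and *Socs3* 2 and 0 and 1 and 0. *Id1* had 3 or fewer fragments in each library and *Plk3* 6 or fewer.

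**Figure D5:**
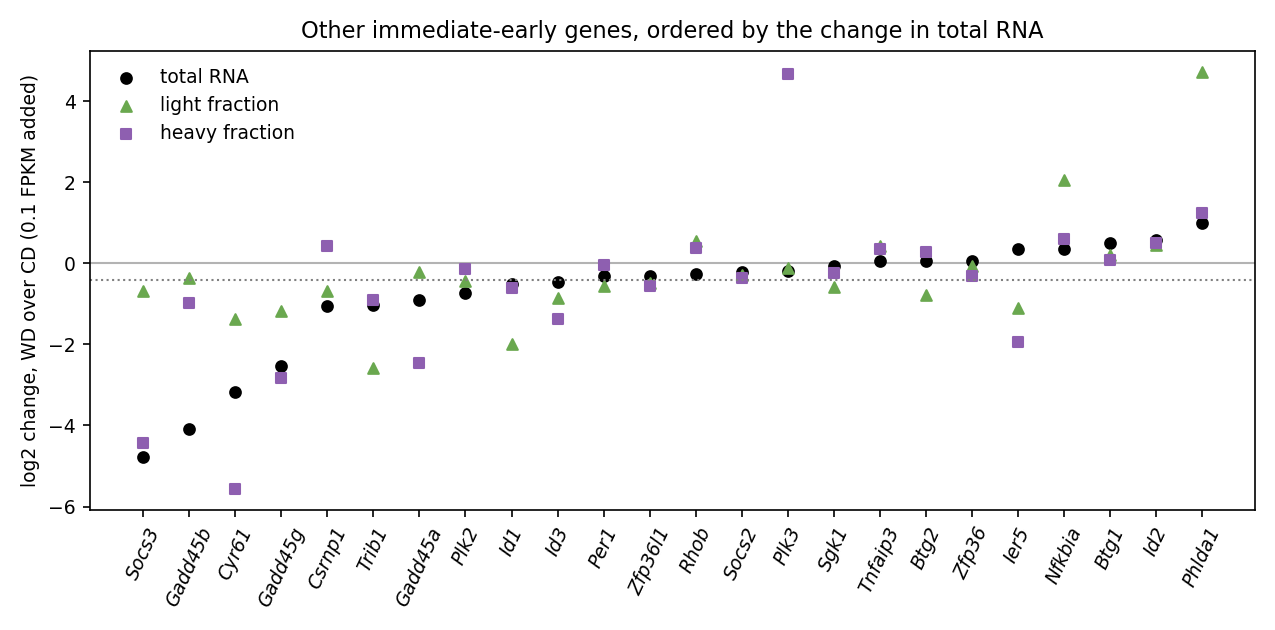
Log2 change (WD over CD, 0.1 FPKM added) of 24 other immediate-early genes in total RNA (circles), the light (triangles) and the heavy fraction (squares), each from 1 library per diet. Genes are ordered by the change in total RNA, the dotted line marks 0.75-fold, and points beyond 4 on either side rest on a value listed at 0, so their size depends on the FPKM added. In total RNA 10 genes lie at or below the line, and *Gadd45g* and *Trib1* do so in all 3 RNAs.

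Markers of other liver cells were set beside these values. Of 8 Kupffer cell and macrophage markers, 4 were at least 1.5-fold and 0 at most 0.75-fold in total RNA (17.7% and 22.7% of all loci), or 2 and 0 with rescaling over all loci. Their summed level was 89.3 FPKM in CD and 122.8 FPKM in WD. The sums were 82.3 and 84.6 FPKM in the light and 144.3 and 181.3 FPKM in the heavy fraction. In total RNA the sinusoidal endothelial markers summed to 133.3 and 168.5 FPKM and the stellate cell markers to 68.4 and 83.9 FPKM. In that RNA 1 of 6 endothelial and 1 of 8 stellate markers were at least 1.5-fold, and 1 of each list was at most 0.75-fold. *Fcgr2b* alone gave 73.2 and 93.4 FPKM of the endothelial sums. The endothelial sums were 123.3 and 102.9 FPKM in the light and 118.7 and 108.8 FPKM in the heavy fraction, and the stellate sums 100.6 and 100.4 FPKM and 82.3 and 100.3 FPKM. The 3 sums were thus higher in WD total RNA and did not all keep that direction in the fractions, while *Dusp1* and *Dusp6* were lower in WD in each RNA as deposited. Their part in the result was not tested. The neutrophil markers *S100a8*, *S100a9* and *Csf3r* were listed at 0 in the 6 libraries and the list summed to 0.782 FPKM or less. The lymphocyte markers *Cd3g*, *Cd3d* and *Cd79a* were also at 0, with a sum of 1.25 FPKM or less, and the cholangiocyte markers summed to 0.694 FPKM in CD and 4.35 FPKM in WD total RNA.

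The profile of the 9 mRNAs over the 6 libraries was taken as the mean of their log2 values, each centered on its own mean. It was highest in the CD light fraction, at 0.59, and lowest in the WD heavy fraction, at -1.41, where *Fos*, *Egr1* and *Atf3* were listed at 0. Its low point thus rests in part on members with 3 or fewer heavy fragments in CD. Among 3801 other loci whose symbol was on 1 locus and whose mean reached 10 FPKM, 33 had a Pearson r of at least 0.9 with it over the 6 libraries. The highest were *Srp19* (0.98), AABR07027212.1 (0.98), ENSRNOG00000058248 (0.97), LOC100363472 (0.97) and *Stim2* (0.96). *Srp19*, for example, was between 24.4 and 36.8 FPKM in 5 libraries and at 12.1 FPKM in the WD heavy fraction. The 6 points share the rats of each diet and the 3 RNAs of each rat pool, so these values describe likeness only.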

How the data were processed

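RNA from the livers of 3 rats per diet was combined for each of 6 libraries, after removal of ribosomal RNA. The authors aligned the reads to Rnor_6.0 with TopHat and deposited FPKM values per locus from Cufflinks and Cuffnorm, with the lower and upper bound of each value. The annotation is not given in the sources used here, and the methods also describe a separate alignment of Riboseq reads, which the fractions may have passed through. No column was left without a sample (0 columns).

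Scripts used matplotlib 3.10.9, numpy 2.4.6, pandas 2.3.3, scipy 1.17.1 and Python 3.11.15. Changes are log2 ratios of the deposited FPKM, with 0.1 FPKM added to each value, for the 10201 of 32158 loci with a symbol whose estimate succeeded and whose mean reached 1 FPKM. The authors' thresholds for ribosome density, 1.5 and 0.75, were applied to each ratio of WD to CD. With 1 library per diet and RNA there was no test. Intervals were exact binomial (Clopper-Pearson) for a ratio and conditional odds ratio for ribosome density, at 95%. A count of 0 was taken to allow 3 fragments.

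Fragment numbers were taken as the smallest integers reproducing a locus, given a factor for each library and a step for the locus, within 0.002%, for 74.0% of 13283 loci above 0 in at least 2 libraries and 1.55% after a jitter of 1%. Larger common multiples cannot be told apart from them. Of 40460 values with at most 30 fragments, 85.1% had the relative upper Cufflinks bound most frequent for their number and library. That bound was drawn from the same values, so this does not show that the numbers are true. In simulated data 98.8% of 6775 loci were given numbers, 98.0% of which were true. The simulation used loci already given numbers and the same model of number, step and factor. It thus shows only that the search works where that model holds. The largest base number tried was lowered to 100 after implausible numbers had been seen for low loci, which left the members' numbers as they were.

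The members and lists were chosen with earlier results of these data known. Named genes were the members, the highest and lowest change in total RNA and in ribosome density of each list, and the 5 loci most like the members' mean profile, with exceptions named, and some results that the rule would name are not reported here. Motifs were chosen after the promoters were seen. Promoters came from RefSeq (GRCr8), matched by symbol for 5 of 10 members, and no coordinate was converted from Rnor_6.0. Alternatives were other pseudocounts (1 and 0.01 FPKM), other filters, rescaling, centring and the heavy fraction over total RNA.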

Additional observations from a re-analysis of the deposited data

Results flagged for a closer look

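In 3 members the change between the diets had, as deposited, the opposite sign in the light and the heavy fraction. The share of all loci with opposite signs was not computed, so nothing is read from this count. With 1 library per diet and fraction, these differences were not tested. For *Jun* the log2 change was 0.24 in the light and -0.72 in the heavy fraction, a difference of -0.96. For *Junb* it was 0.85 and -1.56, a difference of -2.42, on 12 or fewer fragments per library. For *Ier3* it was -1.10 and 0.72, a difference of 1.82, with no fragment numbers behind it. Of all loci compared, 12.6% had a light ratio above 1 and a heavy ratio of at most 0.75, as *Jun* and *Junb* had. That rule does not cover *Ier3*. With libraries rescaled to the same sum over loci with a symbol, *Jun* was lower in WD in both fractions, at -0.11 and -0.74.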

How the results depend on the processing

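No paired analysis was possible because each diet and RNA was measured in 1 library pooled from 3 rats. No change of a member past a threshold as deposited turned its direction under the alternatives run. Of the medians and counts over the members, 56 values stayed within the tolerance set for them, a factor of 1.5 for a count, though several counts differed by 1, and 7 moved. The members' median log2 change in the light fraction was 0.26 and in total RNA -0.11 with rescaling to the same sum over all loci. The number of members at least 1.5-fold higher in the light fraction was 1 instead of 2 with a pseudocount of 1 FPKM, 0 with libraries rescaled to the same sum over loci with a symbol, and 1 with changes centred on their median. The number higher in the heavy fraction was 2 instead of 1 with rescaling to the same sum over all loci, a setting added after the data were seen, and the number with a higher ribosome density was 0 instead of 1 when density was heavy relative to total RNA. The rescalings moved the median log2 change of all loci to -0.29 and 0.69 in the light fraction, -0.04 and 0.34 in the heavy fraction and 0.12 and -0.11 in total RNA. The light change of *Dusp1* was -0.41 with the rescaling over all loci, just short of the 0.75-fold limit, and that of *Dusp6* was -0.43. Relative to the shifted median they were -1.10 and -1.13. Over all alternatives the change of *Dusp1* was between -1.15 and -0.88 in total RNA and between -0.93 and -0.53 in the heavy fraction, and that of *Dusp6* between -1.36 and -1.09 and between -1.60 and -1.20. The light change of *Jun* ranged from -0.11 to 0.93 and its heavy change from -0.74 to -0.34, and the changes of *Egr1* and *Jun* in total RNA took both signs. That of *Egr1* in the light fraction ranged from -0.75 to 0.26, past the 0.75-fold limit with the rescaling over loci with a symbol, with centring and with a pseudocount of 0.01 FPKM. With a mean of at least 10 FPKM, fewer loci were at least 1.5-fold higher, 8.77% in total RNA, 17.1% in the light and 13.3% in the heavy fraction. Depth limits *Fos*, *Atf3*, *Junb*, *Myc* and *Egr1* in the heavy fraction.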
